A study of Mus musculus with 7 samples.

Results

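Both pluripotent mouse lines of the series were set against mouse embryonic fibroblasts (MEFs), the somatic cells from which induced pluripotent lines are made. The libraries were chosen by their labels and are 3 of the 7 in the series: induced pluripotent stem cells (iPSCs) of strain A12 (Mbd3 flox/-), embryonic stem cells (ESCs) of the line v6.5, and MEFs of strain A12 (Mbd3 flox/-). The iPSCs and the MEFs thus share a genotype with one floxed and one deleted allele of Mbd3, which encodes a subunit of the NuRD chromatin complex, and the ESCs do not. The label of the ESCs says that they were grown on MEF feeder cells. The same note stands on the iPSC label with question marks after it, so whether feeders were present there is not known. The study measured polyadenylated RNA before, during and after fibroblasts were turned into neural stem cells by the factors Oct4, Sox2, Klf4 and Myc (OSKM). Its other 4 libraries are cells sorted on day 6, converted neural stem cells with and without a Nanog-traced Tomato label, and neural stem cells from embryonic brain. Each group has 1 library, so no difference below has a replicate check or a test, and line, strain, medium and feeder layer cannot be told apart from the groups.

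Naive pluripotent cells are held in a dividing, undifferentiated state by a network of transcription factors around Oct4, Sox2, Nanog and Esrrb, under the signals LIF and Bmp and against the pull of Fgf signalling. They form compact colonies joined by E-cadherin and cycle with a short first gap phase. Fibroblasts are spindle-shaped mesenchymal cells that secrete collagen-rich matrix, pull on it with actin stress fibres and keep the Hox code of their place in the body.

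Values are RPKM, the reads on an exon divided by its length and by the depth of the library, and the value of a gene is the mean over its exons weighted by their length. The depth, read from the steps of the values, was 58 megareads in the iPSC library, 41 megareads in the ESC library and 45 megareads in the MEF library. Mbd3 itself was measured at 68.4 RPKM in iPSCs and 73.6 RPKM in ESCs, against 65.3 RPKM in MEFs, so its level did not separate the genotypes. The label of each library was checked against markers. All 6 pluripotent markers (Pou5f1, Nanog, Sox2, Esrrb, Zfp42 and Dppa5a) were at 183 RPKM or more in both lines and at 2.92 RPKM or less in MEFs. Over the 26 macrophage markers tested, the summed level was 369 RPKM in iPSCs and 358 RPKM in ESCs, against 6594 RPKM in MEFs, and over the 10 neutrophil and mast cell markers it was 0.232 RPKM in iPSCs and 9.29 RPKM in ESCs, against 1996 RPKM in MEFs. C1qa, C1qb, Adgre1 and Lyz1 were at 0 in the iPSC library. Most of the macrophage sum in iPSCs came from Laptm5, which was higher in both lines than in MEFs. The median macrophage marker was at 0.324% of its MEF level in iPSCs and 1.48% in ESCs. Over 15 skeletal muscle markers tested the summed level was 576 RPKM in iPSCs and 557 RPKM in ESCs, against 779 RPKM in MEFs, most of which in the lines came from Mylpf. The part of these other transcripts in the results below was not tested.

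The ESC library stood apart from the iPSC library in its fibroblast transcripts. Dcn, the small proteoglycan decorin, was at 0.363 RPKM in iPSCs and 741 RPKM in ESCs, against 374 RPKM in MEFs, and Lum, the related lumican, at 0.0493 RPKM in iPSCs and 308 RPKM in ESCs, against 154 RPKM in MEFs. Both were near 0 in iPSCs and higher in ESCs than in MEFs. Thy1, a fibroblast surface protein, was measured at 5.8 RPKM in iPSCs and 158 RPKM in ESCs, against 583 RPKM in MEFs. Over genes of 10 RPKM or more in MEFs, the median level in percent of MEF was 0.605% in iPSCs and 5.84% in ESCs for fibrillar collagens, 1.39% in iPSCs and 20.9% in ESCs for matrix glycoproteins and 7.71% in iPSCs and 8.9% in ESCs for contractile genes. In bulk RNA, fewer cells of a type and less RNA per cell cannot be told apart. What the feeder layer adds to the ESC values was not tested. Because a gene had to differ in both lines, the counts below rest on the line with the smaller difference, which for matrix genes was mostly the ESC line (ESCs above iPSCs in 34 of 36 matrix glycoproteins).

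**Figure D1:**
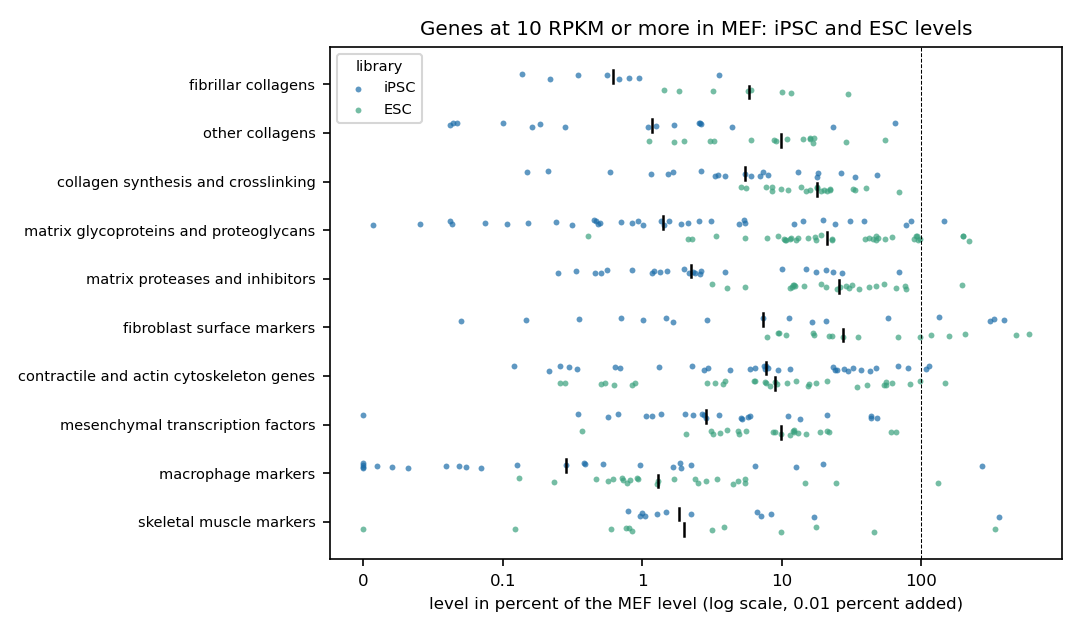
Level of each gene in iPSCs (upper row of points) and ESCs (lower row of points) in percent of its MEF level, on a log axis with 0.01 percent added, for list members at 10 RPKM or more in MEFs. Black bars are medians and the dashed line is the MEF level. ESC points for collagens and matrix lie to the right of the iPSC points, with medians of 5.84% in ESCs and 0.605% in iPSCs for fibrillar collagens, while the medians of contractile genes and macrophage markers lie far left of the MEF line in both and single members lie right of it.

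In all, 17239 of 29686 matched genes reached 2 RPKM in at least 1 of the 3 libraries and were compared. A total of 1282 genes (7.44%) were 4-fold or more higher in both lines than in MEFs, and 1553 (9.01%) were 4-fold or more lower. Each line alone had 1735 (10.1%) higher and 2351 (13.6%) lower in iPSCs, and 1933 (11.2%) higher and 1767 (10.3%) lower in ESCs. At 2-fold, the rule used for the lists below, the counts were 3533 (20.5%) higher and 3260 (18.9%) lower. The list counts below are read against these shares. A gene that reached 2 RPKM through MEFs alone cannot be counted as higher. One that reached it through the lines alone cannot be counted as lower, so list counts were in part set by that floor. Ratios are log2((a + 1)/(b + 1)) of RPKM, and the mean of both ratios had a median of 0.21 over all tested genes, so a list median is read against that value. By gene type, 6.98% of 14275 protein-coding genes, 14.0% of 372 long intergenic RNAs and 24.1% of 299 unprocessed pseudogenes were higher. The lower shares were 10.2% of protein-coding genes, 8.06% of long intergenic RNAs and 4.35% of unprocessed pseudogenes.

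**Figure D2:**
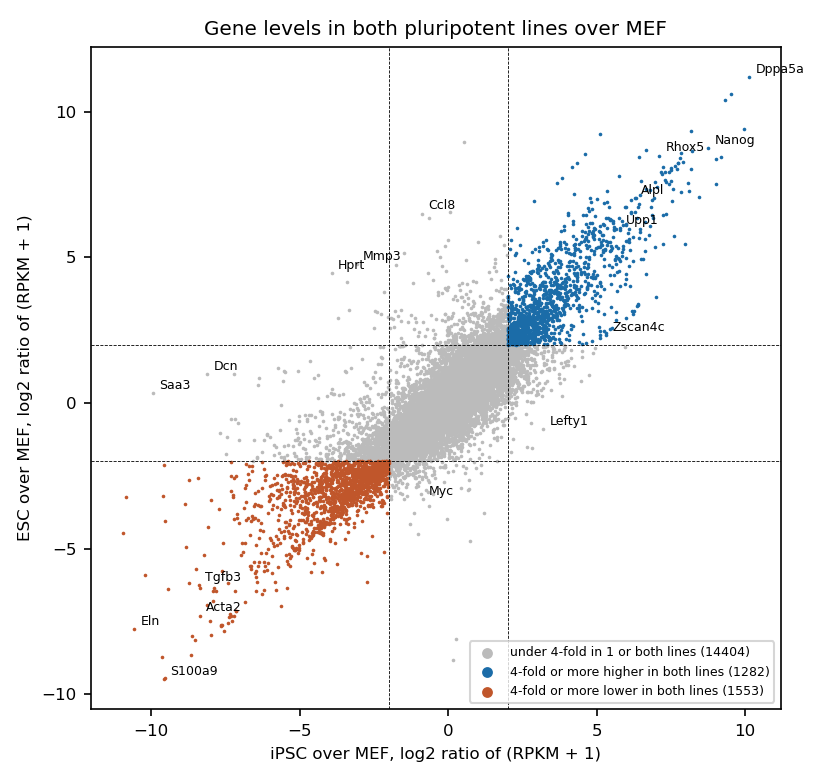
Log2 ratio of each of 17239 genes in iPSCs over MEFs (x axis) and in ESCs over MEFs (y axis), with 4-fold marked by dashed lines. The 1282 genes in blue and 1553 in orange pass in both lines; genes at the upper left, such as Hprt and Mmp3, were lower in iPSCs and higher in ESCs, and Dcn and Saa3 at the left were lower in iPSCs alone.

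The called genes were also set against the other libraries of the series. Of the 1282 higher genes, 628 (49.0%) were also 4-fold or more above the day 6 cells, and 900 (70.2%) above the brain neural stem cells. A total of 493 were 4-fold or more above each of the other 4 libraries in both lines. Of the 1553 lower genes, 590 had a MEF level 4-fold or more above each of the other 6 libraries. In day 6 cells 1249 of them (80.4%) were 4-fold or more lower than in MEFs. Higher genes were chosen for high values in the lines and lower genes for high values in MEFs. The counts in this paragraph use those same values again, so they are not separate support. No share over all tested genes stands beside them.

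Ranked by the smaller of both ratios, the first 15 named higher genes were Dppa5a, Pou5f1, Nanog, Tdh, Tdgf1-ps1, Fbxo15, Tdgf1, Trap1a and 7 genes of the X-linked Rhox cluster. The first 15 lower genes were S100a9, S100a8, Arg1, Actg2, Eln, Stfa2, Ins2, Dlk1, F13a1, Fcer1g, Ngp, Acta2, Tagln, Th and Stfa2l1. They include genes of neutrophils and macrophages, smooth muscle actins and elastin. Nanog, the homeodomain factor that stabilises the naive state, was measured at 772 RPKM in iPSCs and 765 RPKM in ESCs, against 0.795 RPKM in MEFs. Counting error in the MEF library, where 81 reads fell on its exons, limits the ratio of iPSCs over MEFs, with reads corrected for depth, to between 742 and 1162 (exact Clopper-Pearson 95% interval, counting error only). Pou5f1, which encodes Oct4, was at 2067 RPKM in iPSCs and 1409.7 RPKM in ESCs, against 1.09 RPKM in MEFs, and the same interval for ESCs over MEFs ran from 837 to 1357. The stretch before Nanog is shown because it holds the composite site at which Oct4 and Sox2 are known to bind side by side. The bases are from RefSeq, GRCm38.p6, chr6:122707239-122707488, plus strand, read 5′ to 3′ toward the start of the gene. Capitals mark the Oct-Sox composite, searched on both strands and found here on the opposite strand, 75 to 62 bases before the start.
Nanog: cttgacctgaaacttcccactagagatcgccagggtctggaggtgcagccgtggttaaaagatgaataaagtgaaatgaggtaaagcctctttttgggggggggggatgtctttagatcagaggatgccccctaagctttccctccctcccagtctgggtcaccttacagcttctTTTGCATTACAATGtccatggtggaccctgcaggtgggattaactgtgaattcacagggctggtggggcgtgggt
Among the promoters of 27025 genes in the table (250 bases before to 50 after the start), Nanog was the 1 gene whose promoter held the string searched. That string was fixed but for a single free base. Composites with other bases were not counted, so the search does not show how common such sites are. The octamer ATGCAAAT alone was held by 2.5% of 788 promoters of higher genes and 2.4% of 1106 promoters of lower genes. Its share was 1.7% of 11345 promoters of tested genes and 2.0% of all promoters. A match is a string of letters and not a measured site.

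All but 1 of the 18 naive factors tested were 2-fold or more higher in both lines and none was lower, with a list median of 5.60 on the log2 scale. Fbxo15, an F-box protein used as a reporter of reprogramming, was measured at 358 RPKM in iPSCs and 797 RPKM in ESCs, against 0.247 RPKM in MEFs. Esrrb, an orphan nuclear receptor of the naive network, was measured at 313 RPKM in iPSCs and 216 RPKM in ESCs, against 0.158 RPKM in MEFs. Zfp42, the zinc finger protein Rex1, was at 617 RPKM in iPSCs and 238 RPKM in ESCs, against 0.772 RPKM in MEFs. Tfcp2l1, a factor downstream of LIF, was measured at 135 RPKM in iPSCs and 172 RPKM in ESCs, against 0.633 RPKM in MEFs. In all 3 the lines stood above 100 RPKM and MEFs below 1 RPKM. Prdm14, which guards the naive state against Fgf signalling, was measured at 53 RPKM in iPSCs and 32.1 RPKM in ESCs, against 0.104 RPKM in MEFs, and Nr5a2, a receptor that binds the Pou5f1 promoter, at 49.3 RPKM in iPSCs and 46.2 RPKM in ESCs, against 0.115 RPKM in MEFs. Klf2, Klf4 and Klf5, the Klf factors of the naive network, had 8.82 to 15.1 RPKM in MEFs. Klf4 was at 143 RPKM in iPSCs and 75.2 RPKM in ESCs, against 15.1 RPKM in MEFs, and its smaller log2 ratio was 2.25, against 7.55 for Esrrb. Gbx2, the member that did not pass, was measured at 15.4 RPKM in iPSCs and 3.32 RPKM in ESCs, against 2.01 RPKM in MEFs. Fbxo15, Esrrb, Zfp42, Tfcp2l1, Prdm14 and Nr5a2 were under 2 RPKM in MEFs and reached 2 RPKM through the lines alone. Such genes cannot be counted as lower, so the counts of naive factors were in part set by that floor.

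Among 20 core factors, 18 were higher and 2 were under 2-fold in a line. Sox2 was measured at 252 RPKM in iPSCs and 183 RPKM in ESCs, against 2.92 RPKM in MEFs, L1td1, an RNA-binding protein of pluripotent cells, at 232 RPKM in iPSCs and 63.1 RPKM in ESCs, against 0.213 RPKM in MEFs, and Dppa4, a chromatin protein, at 113 RPKM in iPSCs and 84 RPKM in ESCs, against 0.14 RPKM in MEFs. Foxd3 and Etv4 did not pass in ESCs, where they were at 2.14 and 23.1 RPKM, against 2.01 and 21 RPKM in MEFs. L1td1 and Dppa4 reached 2 RPKM through the lines alone, so the count of higher core factors was also in part set by that floor. The lines themselves differed: Utf1 was at 75.1 RPKM in iPSCs and 16.5 RPKM in ESCs, against 0.0906 RPKM in MEFs, higher in iPSCs than in ESCs. Of 6 tested epiblast and germ layer genes, Eomes and Otx2 were higher, and Gata6 and Gata4 were among those lower. Gata6, the factor of primitive endoderm, was measured at 1.73 RPKM in iPSCs and 1.14 RPKM in ESCs, against 17.9 RPKM in MEFs.

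Long noncoding RNAs named for their link to pluripotency were looked at after their values were seen. Of 22 Platr genes measured, 17 reached 2 RPKM, and 13 of those were 4-fold or more higher in both lines and none lower. In iPSCs the 17 ranged from 1.79 to 172 RPKM, in ESCs from 2.66 to 173 RPKM and in MEFs from 0 to 0.303 RPKM. Platr13 was measured at 108 RPKM in iPSCs and 173 RPKM in ESCs, against 0.237 RPKM in MEFs, and Platr15 at 172 RPKM in iPSCs and 49.4 RPKM in ESCs, against 0.145 RPKM in MEFs. All 17 reached 2 RPKM through the lines alone, so their distance from MEFs was in part set by that floor.

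Transcripts of the transient 2-cell-like state, which a small share of cells in such cultures enters, differed between the lines. Zscan4c, a telomere-linked zinc finger gene of that state, was at 38.6 RPKM in iPSCs and 4.06 RPKM in ESCs, against 0 in MEFs. All 7 tested genes and pseudogenes of the Zscan4 family had 28.2 to 50.1 RPKM in iPSCs and 2.28 to 6.39 RPKM in ESCs, while MEFs had 0 to 0.0270 RPKM. Of 8 list members tested, 6 were higher, among them Gm4340 at 61.9 RPKM in iPSCs and 6.52 RPKM in ESCs, against 0 in MEFs, Zscan4f at 50.1 RPKM in iPSCs and 6.39 RPKM in ESCs, against 0.0189 RPKM in MEFs and Zscan4d at 38.4 RPKM in iPSCs and 4.25 RPKM in ESCs, against 0 in MEFs, with a list median of 3.56. With members at 0 set to the level of 3 reads in that library, and no pseudocount added for those members, it was 7.54. Leaving out the pseudocount widens their ratios, so this value is not on the scale of the list median. Reads of near-identical copies cannot be told apart, so the copies are not separate observations.

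Several arrays of copied genes were higher or lower as blocks, seen when the genome was cut into intervals of 2 Mb after the values were known. On chromosome 4, between 144 and 148 Mb, 85 of 104 tested genes were 4-fold or more higher in both lines, while 64 of the other 1105 genes of that chromosome were. The block holds an array of zinc finger genes of the KRAB type, a class known for silencing of retroelements. It also holds other genes and pseudogenes, and Pramef12, Tnfrsf8 and Vmn2r-ps15 were among those higher. All but 1 of its 19 named zinc finger genes passed, and those 18 were at 47.7 to 371 RPKM in iPSCs, 83.6 to 642 RPKM in ESCs and 0.677 to 35.8 RPKM in MEFs. Rex2 was measured at 289 RPKM in iPSCs and 312 RPKM in ESCs, against 1.49 RPKM in MEFs, Zfp980 at 239.7 RPKM in iPSCs and 222 RPKM in ESCs, against 1.13 RPKM in MEFs and Zfp993, with the highest MEF level of them, at 260.4 RPKM in iPSCs and 642 RPKM in ESCs, against 35.8 RPKM in MEFs. In day 6 cells the same 18 genes lay between 1.36 and 147 RPKM. Where copies in the block are near-identical their reads cannot be told apart, so its genes are not separate observations.

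Other blocks lay on the X and Y chromosomes, where 19.8% of 899 and 37.5% of 24 tested genes were higher. On the remaining chromosomes apart from 4 the share was 4.3% to 7.9%. Whether the sex of the cells differed between the libraries was not tested. The Rhox homeobox cluster of the X, known from testis, ovary and placenta, had 42 tested genes and 40 of them higher. The 42 ranged from 2.44 to 297 RPKM in iPSCs, from 3.88 to 710 RPKM in ESCs and from 0 to 0.972 RPKM in MEFs, where 34 had no read. Like the Platr genes, the Rhox and Zscan4 genes reached 2 RPKM through the lines alone. Rhox2b was measured at 241 RPKM in iPSCs and 309 RPKM in ESCs, against 0 in MEFs, Rhox4b at 196 RPKM in iPSCs and 277 RPKM in ESCs, against 0 in MEFs and Rhox3a at 181 RPKM in iPSCs and 194 RPKM in ESCs, against 0 in MEFs. Rhox5, the founding member, was at 270.1 RPKM in iPSCs and 709.6 RPKM in ESCs, against 0.972 RPKM in MEFs. Of 12 list members of the cluster, all 12 were 2-fold or more higher, with a median of 5.15. With members at 0 set to 3 reads and no pseudocount added for them, it was 7.04, which is not on the same scale. On the Y chromosome 8 of 10 tested genes between 2 and 4 Mb were higher, at 10.3 to 66.6 RPKM in iPSCs and 41.1 to 280 RPKM in ESCs, against 0.0983 to 0.253 RPKM in MEFs. That interval holds Rbmy, a gene of male germ cells. Its 8 higher genes also reached 2 RPKM through the lines alone. On chromosome 7, 32 Obox4 pseudogenes were measured and 17 reached 2 RPKM, all through the lines, since none of the 17 had a read in MEFs. Of these 16 were 4-fold or more higher, with medians over the 17 of 8.63 RPKM in iPSCs and 5.64 RPKM in ESCs. The one block of this kind that was lower was the stefin A cluster on chromosome 16, protease inhibitors made by neutrophils. Its 9 tested genes were at 0 to 0.251 RPKM in iPSCs and 0 to 0.471 RPKM in ESCs, against 23.6 to 411 RPKM in MEFs. They reached 2 RPKM through MEFs alone.

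**Figure D3:**
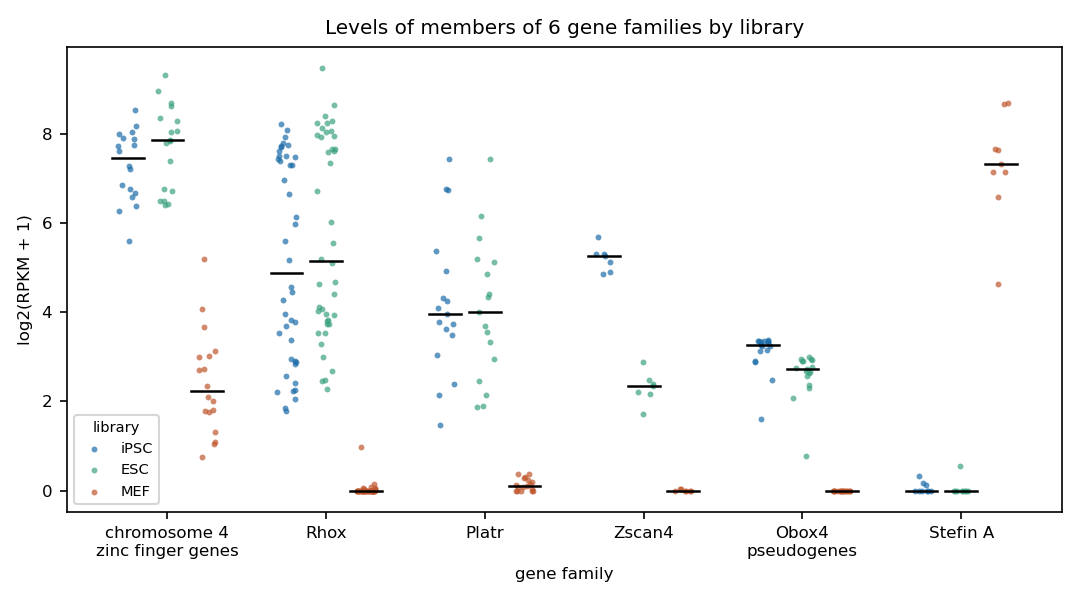
Log2(RPKM + 1) of the tested members of 6 gene families in iPSCs, ESCs and MEFs, 1 point per gene, with black bars at the medians. MEF points of the Rhox, Platr, Zscan4 and Obox4 families lie at or near 0, Zscan4 genes are higher in iPSCs (28.2 to 50.1 RPKM) than in ESCs (2.28 to 6.39 RPKM), and stefin A genes are near 0 in both lines.

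Germ line genes, many of which are silenced by promoter methylation in somatic cells, were nearly all higher: 34 of 35 tested were 2-fold or more higher in both lines, none lower. The list median was 3.53. With members at 0 set to 3 reads and no pseudocount added for them, it was 3.99, which is not on the same scale. Dazl, an RNA-binding protein of germ cells, was measured at 146 RPKM in iPSCs and 246 RPKM in ESCs, against 0.0151 RPKM in MEFs, Sohlh2, a factor of oocyte and spermatogonial growth, at 155 RPKM in iPSCs and 168 RPKM in ESCs, against 0.282 RPKM in MEFs and Tex19.1, a retroelement restrainer, at 118 RPKM in iPSCs and 87.3 RPKM in ESCs, against 0.0103 RPKM in MEFs. Hormad1 was measured at 41.1 RPKM in iPSCs and 122 RPKM in ESCs, against 0.0334 RPKM in MEFs, Smc1b at 4.41 RPKM in iPSCs and 37.3 RPKM in ESCs, against 0.138 RPKM in MEFs, and Tdrd12 of the piRNA pathway at 7.58 RPKM in iPSCs and 142 RPKM in ESCs, against 0.166 RPKM in MEFs. These 3 were higher in ESCs than in iPSCs. The exception, Sycp2, was at 1.44 RPKM in iPSCs and 2.19 RPKM in ESCs, against 0.234 RPKM in MEFs. All germ line genes named here were at 0.282 RPKM or less in MEFs and reached 2 RPKM through the lines alone. A gene that enters in this way cannot be counted as lower, so the count of higher members was in part set by that floor.

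The Nodal pathway split between its parts. The ligand Nodal was measured at 115 RPKM in iPSCs and 23.4 RPKM in ESCs, against 0.138 RPKM in MEFs, its co-receptor Tdgf1 at 343 RPKM in iPSCs and 309 RPKM in ESCs, against 0.196 RPKM in MEFs, and Gdf3, a related ligand, at 80.9 RPKM in iPSCs and 60.1 RPKM in ESCs, against 0.303 RPKM in MEFs. Foxh1, the DNA-binding partner of Smad2, was measured at 58.5 RPKM in iPSCs and 43.9 RPKM in ESCs, against 0.134 RPKM in MEFs. All 4 were near 0 in MEFs, and the ligand was higher in iPSCs than in ESCs. Lefty2, a target and inhibitor of Nodal, was at 141 RPKM in iPSCs and 12.8 RPKM in ESCs, against 0.0988 RPKM in MEFs. Its neighbour Lefty1 was measured at 55.1 RPKM in iPSCs and 2.27 RPKM in ESCs, against 5.08 RPKM in MEFs, 4-fold or more above MEFs in iPSCs and under 2-fold below them in ESCs. Inhba, the subunit of Activin A, was lower in both lines, at 0.235 RPKM in iPSCs and 7.31 RPKM in ESCs, against 95.5 RPKM in MEFs. Smad2, Smad3 and Smad4 differed by less than 2-fold, with smaller log2 ratios between -0.51 and 0.17. In sum 7 of 18 members were higher and 3 lower.

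TGF-beta signalling genes were lower or under 2-fold: 10 of 17 lower and none higher, with a median of -3.53. Tgfb1i1, a focal adhesion protein, was measured at 1.5 RPKM in iPSCs and 2.55 RPKM in ESCs, against 75.4 RPKM in MEFs. Tgfb3 was at 0.219 RPKM in iPSCs and 4.32 RPKM in ESCs, against 406 RPKM in MEFs, Tgfb2 at 1.95 RPKM in iPSCs and 1.47 RPKM in ESCs, against 53.2 RPKM in MEFs and Tgfb1 at 3.03 RPKM in iPSCs and 3.51 RPKM in ESCs, against 48.1 RPKM in MEFs. MEFs had the highest value for all 3 ligands. Of the Bmp pathway, 16 of 21 members were lower and 1, Bmp7, was higher. Bmp4 was measured at 26.9 RPKM in iPSCs and 5.03 RPKM in ESCs, against 211 RPKM in MEFs, and Id3, a direct target, at 54.2 RPKM in iPSCs and 4.2 RPKM in ESCs, against 368 RPKM in MEFs. Smad6, an inhibitor of the pathway, was measured at 0.994 RPKM in iPSCs and 0.759 RPKM in ESCs, against 12.1 RPKM in MEFs. Id1, another target, was at 31.8 RPKM in iPSCs and 3.42 RPKM in ESCs, against 78.2 RPKM in MEFs. For Bmp4, Id3 and Id1 the ESC level was the lowest.

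In the LIF pathway 2 of 18 genes were higher, the targets Tfcp2l1 and Klf4, and 5 were lower. The receptor Lifr was measured at 12.1 RPKM in iPSCs and 12.3 RPKM in ESCs, against 15 RPKM in MEFs and Stat3, the factor it activates, at 59.9 RPKM in iPSCs and 57.7 RPKM in ESCs, against 91.7 RPKM in MEFs. The shared subunit Il6st, gp130, was measured at 26 RPKM in iPSCs and 34.4 RPKM in ESCs, against 187 RPKM in MEFs, lowest in iPSCs. Il11ra1, the interleukin-11 receptor, was at 2.52 RPKM in iPSCs and 11 RPKM in ESCs, against 113 RPKM in MEFs. Of 18 Fgf pathway genes 3 were higher and 6 lower. These were 16.7% and 33.3% of the Fgf list, beside 11.1% and 27.8% of the LIF list. Over all tested genes the shares were 20.5% higher and 18.9% lower. Fgf4, the ligand that pluripotent cells make, was measured at 94.3 RPKM in iPSCs and 205 RPKM in ESCs, against 0.0587 RPKM in MEFs, whereas Egr1, an early target of Erk, was measured at 0.725 RPKM in iPSCs and 0.551 RPKM in ESCs, against 70.5 RPKM in MEFs. Etv5, a further target, was at 170.1 RPKM in iPSCs and 94.9 RPKM in ESCs, against 26.6 RPKM in MEFs. Of the targets, Egr1 was lower and Etv5 higher.

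Wnt pathway genes were lower in 14 of 25 cases and higher in 2, Tcf7 and the receptor Fzd5. Tcf7 was measured at 37.1 RPKM in iPSCs and 44.5 RPKM in ESCs, against 4.1 RPKM in MEFs and Fzd2, a receptor, at 1.23 RPKM in iPSCs and 2.29 RPKM in ESCs, against 53.6 RPKM in MEFs. The ligand Wnt4 was measured at 0.502 RPKM in iPSCs and 0.262 RPKM in ESCs, against 15.4 RPKM in MEFs and the receptor Fzd1 at 0.839 RPKM in iPSCs and 5.03 RPKM in ESCs, against 63.4 RPKM in MEFs. Ctnnb1, beta-catenin, was at 538 RPKM in iPSCs and 583 RPKM in ESCs, against 424 RPKM in MEFs and differed by less than 2-fold. Of 11 Hedgehog genes, 3 were higher, among them the targets Gli1 and Ptch1, and 5 were lower, among them Smo and the co-receptors Boc, Gas1 and Cdon. The Hedgehog shares were 27.3% higher and 45.5% lower, against 20.5% and 18.9% of all tested genes. Gli1 was measured at 7.78 RPKM in iPSCs and 4.66 RPKM in ESCs, against 0.686 RPKM in MEFs and Boc at 2.56 RPKM in iPSCs and 4.14 RPKM in ESCs, against 44.9 RPKM in MEFs. Among 15 Hippo genes 7 were lower: Ccn1, a matricellular target of YAP, was measured at 14.5 RPKM in iPSCs and 99.9 RPKM in ESCs, against 998 RPKM in MEFs and Ankrd1 at 0.395 RPKM in iPSCs and 5.3 RPKM in ESCs, against 109 RPKM in MEFs. Tead3, a DNA-binding partner of YAP, was at 3.56 RPKM in iPSCs and 4.73 RPKM in ESCs, against 56.6 RPKM in MEFs. Yap1 itself was measured at 68 RPKM in iPSCs and 80.0 RPKM in ESCs, against 89.1 RPKM in MEFs. Tead4 was the 1 member that was higher, at 23.4 RPKM in iPSCs and 15.4 RPKM in ESCs, against 2.89 RPKM in MEFs.

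Receptor tyrosine kinases and their ligands were lower in 18 of 26 cases. Pdgfrb was measured at 4.35 RPKM in iPSCs and 11.7 RPKM in ESCs, against 150.1 RPKM in MEFs and Axl at 4.25 RPKM in iPSCs and 20.3 RPKM in ESCs, against 238 RPKM in MEFs. Kit, the stem cell factor receptor, stood at the other end, at 96.9 RPKM in iPSCs and 114 RPKM in ESCs, against 1.69 RPKM in MEFs; Erbb3 and Epha4 were the other two that were higher. Igf1, which signals to survival and growth, was at 0.0369 RPKM in iPSCs and 1.74 RPKM in ESCs, against 45.4 RPKM in MEFs. In the Igf system 10 of 13 genes were lower and Igf2bp1 alone was higher. Igf2, the imprinted growth factor, was measured at 53.8 RPKM in iPSCs and 34.3 RPKM in ESCs, against 3008 RPKM in MEFs, and Igfbp3 at 4.98 RPKM in iPSCs and 35.1 RPKM in ESCs, against 564 RPKM in MEFs. Igfbp3 was lower in iPSCs than in ESCs. For imprinted genes as a class, 19 of 35 were lower and 3, Gab1, Ddc and Ppp1r9a, were higher. Dlk1, a Notch-like ligand, was measured at 0.537 RPKM in iPSCs and 0.257 RPKM in ESCs, against 283 RPKM in MEFs. H19, the noncoding RNA beside Igf2, was at 107 RPKM in iPSCs and 249.9 RPKM in ESCs, against 18104 RPKM in MEFs, Meg3 at 19.5 RPKM in iPSCs and 27.6 RPKM in ESCs, against 369 RPKM in MEFs and Peg3 at 30.2 RPKM in iPSCs and 14 RPKM in ESCs, against 177 RPKM in MEFs. Ins2 and Th, which lie in the same stretch of chromosome 7 as Igf2, were measured at 195 and 170 RPKM in MEFs. Ins2 had no read in iPSCs or ESCs, and Th had 0.0521 RPKM in iPSCs and 0.123 RPKM in ESCs.

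Cadherins were on both sides. Cdh1, E-cadherin, was measured at 156 RPKM in iPSCs and 391 RPKM in ESCs, against 4.46 RPKM in MEFs, while Cdh2, N-cadherin, was measured at 4.6 RPKM in iPSCs and 2.76 RPKM in ESCs, against 58.9 RPKM in MEFs and Cdh11, a mesenchymal cadherin, at 1.52 RPKM in iPSCs and 22.8 RPKM in ESCs, against 292 RPKM in MEFs. Cdh1 was the 1 of 10 tested cadherins that was higher, and 8 were lower. Of 21 epithelial junction genes 12 were higher and 1, Krt19, lower. Epcam, an epithelial adhesion protein, was at 40.5 RPKM in iPSCs and 181 RPKM in ESCs, against 3.94 RPKM in MEFs. Cdh1 and Epcam were higher in ESCs than in iPSCs. Dsg2, a desmosomal cadherin, was measured at 22.4 RPKM in iPSCs and 26.7 RPKM in ESCs, against 1.17 RPKM in MEFs. The epithelial regulators included 8 higher of 12 and none lower. Elf3 was measured at 143 RPKM in iPSCs and 84.6 RPKM in ESCs, against 0.678 RPKM in MEFs, Grhl3 at 52 RPKM in iPSCs and 42.1 RPKM in ESCs, against 0.39 RPKM in MEFs, and the protease inhibitor Spint1 at 116 RPKM in iPSCs and 120.4 RPKM in ESCs, against 1.67 RPKM in MEFs. The splicing regulator Esrp1 was at 0.282 RPKM in iPSCs and 5.4 RPKM in ESCs, against 0.213 RPKM in MEFs, so it was higher in ESCs alone. Of other keratins of simple epithelia, Krt8 and Krt18 were under 2-fold in a line: Krt8 was measured at 11.7 RPKM in iPSCs and 2.62 RPKM in ESCs, against 8.52 RPKM in MEFs and Krt18 at 12.1 RPKM in iPSCs and 8.42 RPKM in ESCs, against 24.5 RPKM in MEFs.

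Other surface proteins were on both sides. Alpl, the alkaline phosphatase stained in pluripotent colonies, was measured at 232 RPKM in iPSCs and 388 RPKM in ESCs, against 1.99 RPKM in MEFs. Pecam1, an adhesion protein of endothelium and of pluripotent cells, was at 93.5 RPKM in iPSCs and 138 RPKM in ESCs, against 1.8 RPKM in MEFs, and Folr1, a folate receptor, at 53.3 RPKM in iPSCs and 105 RPKM in ESCs, against 5.35 RPKM in MEFs. Kdr, which marks endothelium, was measured at 0.634 RPKM in iPSCs and 0.148 RPKM in ESCs, against 5.29 RPKM in MEFs. Ly6a, which encodes Sca-1, was measured at 558 RPKM in iPSCs and 792 RPKM in ESCs, against 168 RPKM in MEFs. All of these but Kdr were higher in the lines. Gpc3, a glypican, was at 13.8 RPKM in iPSCs and 80.9 RPKM in ESCs, against 762 RPKM in MEFs, and Cd44, the hyaluronan receptor, at 1.39 RPKM in iPSCs and 14 RPKM in ESCs, against 83.7 RPKM in MEFs. Of 18 fibroblast surface markers 10 were lower, among them Ncam1 at 10.4 RPKM in iPSCs and 13.5 RPKM in ESCs, against 143 RPKM in MEFs and Fap at 0.0208 RPKM in iPSCs and 5.61 RPKM in ESCs, against 52.2 RPKM in MEFs. Integrins were lower in 14 of 20 cases. The leukocyte chains were on both sides. Itgam was measured at 0.243 RPKM in iPSCs and 0.263 RPKM in ESCs, against 47.4 RPKM in MEFs and Itgb2 at 0.1 RPKM in iPSCs and 0.709 RPKM in ESCs, against 37.4 RPKM in MEFs. Itgb7 was higher, at 20.4 RPKM in iPSCs and 13.4 RPKM in ESCs, against 0.494 RPKM in MEFs, while Itgae was measured at 1.12 RPKM in iPSCs and 2.4 RPKM in ESCs, against 0.289 RPKM in MEFs and Itgal at 3.37 RPKM in iPSCs and 3.1 RPKM in ESCs, against 3.06 RPKM in MEFs, both under 2-fold in a line. Itgb1, the common beta chain, was at 87.6 RPKM in iPSCs and 271 RPKM in ESCs, against 929 RPKM in MEFs, Itga8 at 2.19 RPKM in iPSCs and 2.06 RPKM in ESCs, against 65.5 RPKM in MEFs and Itga6, a laminin receptor chain that was higher, at 49.9 RPKM in iPSCs and 59.5 RPKM in ESCs, against 21.5 RPKM in MEFs.

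All 11 tested fibrillar collagens were 2-fold or more lower in both lines, and 16 of 18 other collagens were. Col1a1 was measured at 19 RPKM in iPSCs and 291 RPKM in ESCs, against 9085 RPKM in MEFs, Col11a1 at 3.76 RPKM in iPSCs and 8.75 RPKM in ESCs, against 477 RPKM in MEFs, and Col3a1 at 26.9 RPKM in iPSCs and 1477 RPKM in ESCs, against 4949 RPKM in MEFs. For Col1a1 and Col3a1 the ESC value lay between the other two. Col2a1, of cartilage, was measured at 4.22 RPKM in iPSCs and 1.68 RPKM in ESCs, against 119 RPKM in MEFs. Col4a1, a basement membrane chain, was at 21.1 RPKM in iPSCs and 24.8 RPKM in ESCs, against 822 RPKM in MEFs with close values in both lines. Col8a2 was measured at 0.0332 RPKM in iPSCs and 1.16 RPKM in ESCs, against 105 RPKM in MEFs and Col15a1 at 0.23 RPKM in iPSCs and 1.43 RPKM in ESCs, against 84.8 RPKM in MEFs. The exception, Col13a1, a transmembrane collagen, was measured at 5.82 RPKM in iPSCs and 7.21 RPKM in ESCs, against 0.186 RPKM in MEFs. Genes that fold, trim and crosslink collagen were lower in 22 of 24 cases. Serpinh1, the collagen chaperone, was at 219 RPKM in iPSCs and 153 RPKM in ESCs, against 2766 RPKM in MEFs, the crosslinking enzyme Lox at 1.46 RPKM in iPSCs and 167 RPKM in ESCs, against 1047 RPKM in MEFs and the hydroxylase P4ha1 at 20.7 RPKM in iPSCs and 67.4 RPKM in ESCs, against 792 RPKM in MEFs. Fkbp10, another chaperone, was measured at 27.5 RPKM in iPSCs and 39.1 RPKM in ESCs, against 506 RPKM in MEFs. Pcolce2 was higher, at 34.4 RPKM in iPSCs and 13.2 RPKM in ESCs, against 1.67 RPKM in MEFs.

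Among 40 matrix glycoproteins and proteoglycans 27 were lower and 1, Lama1, higher. Eln, elastin, was measured at 0.0274 RPKM in iPSCs and 6.17 RPKM in ESCs, against 1548 RPKM in MEFs, and Fbn2, a microfibril protein of the embryo, at 1.21 RPKM in iPSCs and 3.95 RPKM in ESCs, against 175 RPKM in MEFs. Fmod, fibromodulin, was at 0.0189 RPKM in iPSCs and 2.54 RPKM in ESCs, against 121 RPKM in MEFs. Lama1, the laminin chain of early embryonic basement membrane, was measured at 31.4 RPKM in iPSCs and 26.1 RPKM in ESCs, against 2.74 RPKM in MEFs, and Lama4, a chain of vessels and mesenchyme, at 1.01 RPKM in iPSCs and 29 RPKM in ESCs, against 229 RPKM in MEFs. Nid2 and Lamc1, which also build basement membrane, were under 2-fold, at 202 and 141 RPKM in iPSCs, 226 and 178 RPKM in ESCs, and 242 and 182 RPKM in MEFs. Of 26 matrix proteases and inhibitors 19 were lower and none higher in both. Plau, urokinase, was measured at 0.669 RPKM in iPSCs and 6.41 RPKM in ESCs, against 205 RPKM in MEFs and Mmp14 at 20.3 RPKM in iPSCs and 64.6 RPKM in ESCs, against 524 RPKM in MEFs. Mmp12 and Mmp9, proteases also made by myeloid cells, were measured at 0.464 RPKM in iPSCs and 2.17 RPKM in ESCs, against 40.0 RPKM in MEFs for Mmp12 and 0.298 RPKM in iPSCs and 0.53 RPKM in ESCs, against 13.1 RPKM in MEFs for Mmp9. Mmp3, stromelysin, was at 0.297 RPKM in iPSCs and 297 RPKM in ESCs, against 9.89 RPKM in MEFs, so that the ESC library was above the MEFs and the iPSC library below them.

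Contractile genes were lower in 26 of 35 cases and higher in none, with a median of -3.38. Acta2, smooth muscle actin, was measured at 20.4 RPKM in iPSCs and 43.7 RPKM in ESCs, against 7058 RPKM in MEFs, Actg2, the enteric smooth muscle actin, at 0.777 RPKM in iPSCs and 1.73 RPKM in ESCs, against 703 RPKM in MEFs, and Myl9, the regulatory light chain, at 4.1 RPKM in iPSCs and 10.2 RPKM in ESCs, against 1240.4 RPKM in MEFs. Tagln, transgelin, was measured at 22.7 RPKM in iPSCs and 19.4 RPKM in ESCs, against 3649 RPKM in MEFs. Both lines were far below MEFs in all 4. Cnn2, a calponin, was at 30.3 RPKM in iPSCs and 33.7 RPKM in ESCs, against 1026 RPKM in MEFs, and Vcl, vinculin of focal adhesions, at 39.8 RPKM in iPSCs and 46.9 RPKM in ESCs, against 505 RPKM in MEFs. Srf, the factor that drives such genes, was measured at 29.4 RPKM in iPSCs and 15 RPKM in ESCs, against 37 RPKM in MEFs, and its coactivator Mrtfa at 13.2 RPKM in iPSCs and 5.18 RPKM in ESCs, against 40.8 RPKM in MEFs. Mrtfb was measured at 7.2 RPKM in iPSCs and 6.3 RPKM in ESCs, against 8.16 RPKM in MEFs. Mrtfa was, and Srf and Mrtfb were not, 2-fold or more lower in both. Csrp2 and Cnn3, at 429 and 326 RPKM in iPSCs, 329 and 704 RPKM in ESCs, and 399 and 481 RPKM in MEFs, did not pass.

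The promoters of 4 lower genes of muscle and stress fibres are shown because they carry the CArG box, the element bound by Srf: a pair of C, 6 bases of A or T, and a pair of G, marked by capitals. Each is the 250 bases before the start from RefSeq, GRCm38.p6, read 5′ to 3′ toward the gene: Myl9 at chr2:156775214-156775463 (plus strand), Cnn2 at chr10:79988350-79988599 (plus strand), Vcl at chr14:20929148-20929397 (plus strand) and Acta1, the skeletal muscle actin, at chr8:123894776-123895025 (minus strand).
Myl9: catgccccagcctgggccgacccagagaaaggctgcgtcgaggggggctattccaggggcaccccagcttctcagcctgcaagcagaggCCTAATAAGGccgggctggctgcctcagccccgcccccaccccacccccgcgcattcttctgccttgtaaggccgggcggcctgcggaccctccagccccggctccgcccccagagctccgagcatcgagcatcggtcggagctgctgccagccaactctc
Cnn2: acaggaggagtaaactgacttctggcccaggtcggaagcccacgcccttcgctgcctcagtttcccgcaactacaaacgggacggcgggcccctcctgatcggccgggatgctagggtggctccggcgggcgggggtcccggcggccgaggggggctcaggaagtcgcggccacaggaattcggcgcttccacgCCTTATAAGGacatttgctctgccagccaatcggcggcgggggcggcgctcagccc
Vcl: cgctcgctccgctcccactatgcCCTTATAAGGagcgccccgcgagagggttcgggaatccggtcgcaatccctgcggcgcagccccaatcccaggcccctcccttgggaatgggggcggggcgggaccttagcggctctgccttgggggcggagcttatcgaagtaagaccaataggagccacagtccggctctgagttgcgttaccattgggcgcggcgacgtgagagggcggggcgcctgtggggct
Acta1: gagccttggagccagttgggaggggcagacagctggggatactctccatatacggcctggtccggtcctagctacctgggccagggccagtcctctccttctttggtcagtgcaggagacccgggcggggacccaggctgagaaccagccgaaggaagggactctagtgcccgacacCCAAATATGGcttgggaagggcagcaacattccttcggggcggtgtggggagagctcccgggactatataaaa
The box was held by 32 (2.9%) of 1106 promoters of lower genes and 18 (2.3%) of 788 promoters of higher genes. Its share was 1.6% of 11345 promoters of tested genes and 1.8% of all promoters. It began 161 bases before the start in Myl9, 56 in Cnn2, 227 in Vcl and 73 in Acta1. Acta1 was at 1.16 RPKM in iPSCs and 0.714 RPKM in ESCs, against 122 RPKM in MEFs. Other lower genes that hold it were Actc1, Fhl2, Anxa5 and Igf2. Acta2, Actg2 and Tagln, the contractile genes named above, were not among the holders found in this window. Of the 18 higher genes that hold it, 7 were copies of Rhox2, so the share of higher genes rests in part on 1 gene family. Whether the promoters of these copies are alike was not tested. A link of the box to lower or to higher genes was not tested either. For comparison, TATAAA was held by 15.3% of lower, 10.8% of higher, 9.6% of tested and 15.7% of all promoters. TGANTCA, the AP-1 site, was held by 9.0% of lower, 5.5% of higher, 6.3% of tested and 9.0% of all promoters. Lower and higher genes are drawn from the tested genes.

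Transcription factors of mesenchyme were lower in 31 of 35 cases and higher in none. Prrx2 was measured at 4.17 RPKM in iPSCs and 6.46 RPKM in ESCs, against 117 RPKM in MEFs. Snai1, which represses Cdh1, was measured at 2.69 RPKM in iPSCs and 2.53 RPKM in ESCs, against 52.7 RPKM in MEFs, Twist1 at 4.54 RPKM in iPSCs and 7.49 RPKM in ESCs, against 87.5 RPKM in MEFs and Zeb2 at 0.628 RPKM in iPSCs and 0.829 RPKM in ESCs, against 22.9 RPKM in MEFs. Zeb1, of the same family, did not pass, at 8.49 RPKM in iPSCs and 11.7 RPKM in ESCs, against 19.5 RPKM in MEFs. Osr1 of trunk mesenchyme was at 0.137 RPKM in iPSCs and 1.25 RPKM in ESCs, against 40.7 RPKM in MEFs, and Prrx1 of limb mesenchyme at 0.726 RPKM in iPSCs and 9.85 RPKM in ESCs, against 111 RPKM in MEFs. Hox genes were lower in 28 of 34 cases, for example Hoxa9 at 0.46 RPKM in iPSCs and 0.394 RPKM in ESCs, against 9.54 RPKM in MEFs and Hoxb3 at 0.0943 RPKM in iPSCs and 0.371 RPKM in ESCs, against 8.58 RPKM in MEFs. Hoxc13 was the single member that was higher, at 13.2 RPKM in iPSCs and 12.2 RPKM in ESCs, against 0.686 RPKM in MEFs. Its neighbour Hoxc12 was measured at 5.32 RPKM in iPSCs and 1.21 RPKM in ESCs, against 0.151 RPKM in MEFs, which missed 2-fold in ESCs. Hoxa9, Hoxb3, Zeb2 and Osr1 were under 2 RPKM in both lines and reached 2 RPKM through MEFs alone. Such genes cannot be counted as higher, so the counts of lower Hox genes and mesenchymal factors were in part set by that floor.

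Most immune genes were lower in both lines. All but 1 of 16 genes of MHC class I, class II and antigen processing were lower. B2m, the light chain of class I, was measured at 64.4 RPKM in iPSCs and 385 RPKM in ESCs, against 2822 RPKM in MEFs, the heavy chain gene H2-K1 at 20.8 RPKM in iPSCs and 51 RPKM in ESCs, against 262 RPKM in MEFs and the immunoproteasome subunit Psmb8 at 0.361 RPKM in iPSCs and 5.42 RPKM in ESCs, against 52.9 RPKM in MEFs. iPSCs had the lowest value of each. Tap2, the peptide transporter, was at 0.238 RPKM in iPSCs and 2.49 RPKM in ESCs, against 27.6 RPKM in MEFs and the class II gene H2-Ab1 at 3.15 RPKM in iPSCs and 3.34 RPKM in ESCs, against 31.6 RPKM in MEFs. Interferon response genes were lower in 9 of 24 cases, with Gbp2 at 0.377 RPKM in iPSCs and 4.8 RPKM in ESCs, against 22.1 RPKM in MEFs, Ifi44 at 0.0296 RPKM in iPSCs and 4.54 RPKM in ESCs, against 20.2 RPKM in MEFs and Irf7 at 0.242 RPKM in iPSCs and 5.05 RPKM in ESCs, against 20.4 RPKM in MEFs. In others the ESC value was nearer to MEFs: Isg15 was measured at 0.251 RPKM in iPSCs and 36.9 RPKM in ESCs, against 91.6 RPKM in MEFs and Ifit1 at 0.013 RPKM in iPSCs and 7.68 RPKM in ESCs, against 9.01 RPKM in MEFs. Of 26 chemokines, cytokines and receptors 16 were lower and none higher in both. Ccl3 was measured at 0.203 RPKM in iPSCs and 0.35 RPKM in ESCs, against 23.8 RPKM in MEFs, Ccl4 at 0 RPKM in iPSCs and 0.0739 RPKM in ESCs, against 18.8 RPKM in MEFs and Ccl9 at 0 RPKM in iPSCs and 1.55 RPKM in ESCs, against 42.7 RPKM in MEFs. Ccl2 was at 0.276 RPKM in iPSCs and 104 RPKM in ESCs, against 169.6 RPKM in MEFs, Cxcl12, the stromal chemokine, at 0.266 RPKM in iPSCs and 23.2 RPKM in ESCs, against 198 RPKM in MEFs, Ccl8 at 0.371 RPKM in iPSCs and 227 RPKM in ESCs, against 1.52 RPKM in MEFs and Ccl11 at 0 RPKM in iPSCs and 126 RPKM in ESCs, against 0.555 RPKM in MEFs. Ccl8 and Ccl11 were under 2 RPKM in iPSCs and MEFs and over 100 RPKM in ESCs. Macrophage markers were lower in 25 of 26 cases. Some, such as Arg1 and Fcer1g, reached 2 RPKM through MEFs alone, so this count was in part set by that floor. Arg1, arginase, was measured at 0.0931 RPKM in iPSCs and 1.04 RPKM in ESCs, against 861 RPKM in MEFs and Fcer1g at 0.895 RPKM in iPSCs and 0.724 RPKM in ESCs, against 325 RPKM in MEFs. Lyz2 was measured at 0.0526 RPKM in iPSCs and 93.5 RPKM in ESCs, against 2098 RPKM in MEFs and Tyrobp, an adaptor of myeloid receptors, at 9.66 RPKM in iPSCs and 3.2 RPKM in ESCs, against 524 RPKM in MEFs. The exception was Laptm5, a lysosomal protein of blood cells, at 293 RPKM in iPSCs and 142 RPKM in ESCs, against 108 RPKM in MEFs. Skeletal muscle markers were lower in 14 of 15 cases, and Mylpf was higher, at 549 RPKM in iPSCs and 515 RPKM in ESCs, against 153 RPKM in MEFs. Tnnt2, a troponin, was at 0.508 RPKM in iPSCs and 0.41 RPKM in ESCs, against 48.9 RPKM in MEFs. All 10 tested neutrophil and mast cell markers were lower, with S100a9 at 0 RPKM in iPSCs and 0.067 RPKM in ESCs, against 761 RPKM in MEFs, S100a8 at 0.0355 RPKM in iPSCs and 0.101 RPKM in ESCs, against 768 RPKM in MEFs and Ngp at 0.0141 RPKM in iPSCs and 0.04 RPKM in ESCs, against 168 RPKM in MEFs. Summed over the 10, iPSCs had 0.232 RPKM, so none reached 2 RPKM there. Their distance from MEFs was thus in part set by that floor, and the count of 10 is no separate finding.

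Markers of further cell types were mixed. Of 9 adipocyte markers 7 were lower, with Cd36 at 0.0625 RPKM in iPSCs and 1.15 RPKM in ESCs, against 15.9 RPKM in MEFs, Cebpd at 1.74 RPKM in iPSCs and 0.985 RPKM in ESCs, against 19.8 RPKM in MEFs and Fabp5 at 39.3 RPKM in iPSCs and 125 RPKM in ESCs, against 794 RPKM in MEFs. Of 15 neuron and glia markers 9 were lower and 2 higher, with Fabp7 at 0.285 RPKM in iPSCs and 0.145 RPKM in ESCs, against 19.6 RPKM in MEFs, Gap43 at 5.38 RPKM in iPSCs and 2.04 RPKM in ESCs, against 64.5 RPKM in MEFs and Sox10 at 0.108 RPKM in iPSCs and 0.108 RPKM in ESCs, against 7.54 RPKM in MEFs. Of 12 cartilage and bone markers 5 were lower and 3 higher, with Col9a1 at 0.0714 RPKM in iPSCs and 0 RPKM in ESCs, against 14.8 RPKM in MEFs. The 8 endothelial markers split evenly, 3 higher and 3 lower, with Tek at 11.6 RPKM in iPSCs and 14.2 RPKM in ESCs, against 0.476 RPKM in MEFs and Flt1 at 0.0884 RPKM in iPSCs and 3.24 RPKM in ESCs, against 22.6 RPKM in MEFs. Of 8 trophoblast and keratinocyte markers Tfap2c, also a factor of germ cells, was higher at 29.2 RPKM in iPSCs and 47.9 RPKM in ESCs, against 0.653 RPKM in MEFs, and Krt14 was lower at 5.01 RPKM in iPSCs and 4.75 RPKM in ESCs, against 25.8 RPKM in MEFs. Of 5 erythroid and haematopoietic markers Runx1 was lower, at 0.383 RPKM in iPSCs and 0.545 RPKM in ESCs, against 13.5 RPKM in MEFs, and Hbb-y, at 0.107 RPKM in iPSCs and 0 RPKM in ESCs, against 2.47 RPKM in MEFs; Hba-a2 was measured at 0.622 RPKM in iPSCs and 2.47 RPKM in ESCs, against 5.33 RPKM in MEFs. By family, the 9 Sox genes had 4 higher (Sox2, Sox13, Sox15 and Sox21) and 4 lower, among them Sox4 at 4.69 RPKM in iPSCs and 6.45 RPKM in ESCs, against 62.6 RPKM in MEFs. The 14 Klf genes had 7 higher, with Klf15 at 25.8 RPKM in iPSCs and 18.4 RPKM in ESCs, against 1.1 RPKM in MEFs and Klf8 at 17.4 RPKM in iPSCs and 13.7 RPKM in ESCs, against 0.952 RPKM in MEFs, and 2 lower. Of 13 claudins, connexins and pannexins 5 were higher, with Cldn4 at 50.1 RPKM in iPSCs and 140.1 RPKM in ESCs, against 4.96 RPKM in MEFs, and Cldn11 was lower at 0.229 RPKM in iPSCs and 0.183 RPKM in ESCs, against 13.1 RPKM in MEFs. Of 15 Ly6 and GPI-anchored proteins 6 were higher and 6 lower, with Cd109 at 1.33 RPKM in iPSCs and 8.2 RPKM in ESCs, against 113 RPKM in MEFs.

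**Figure D4:**
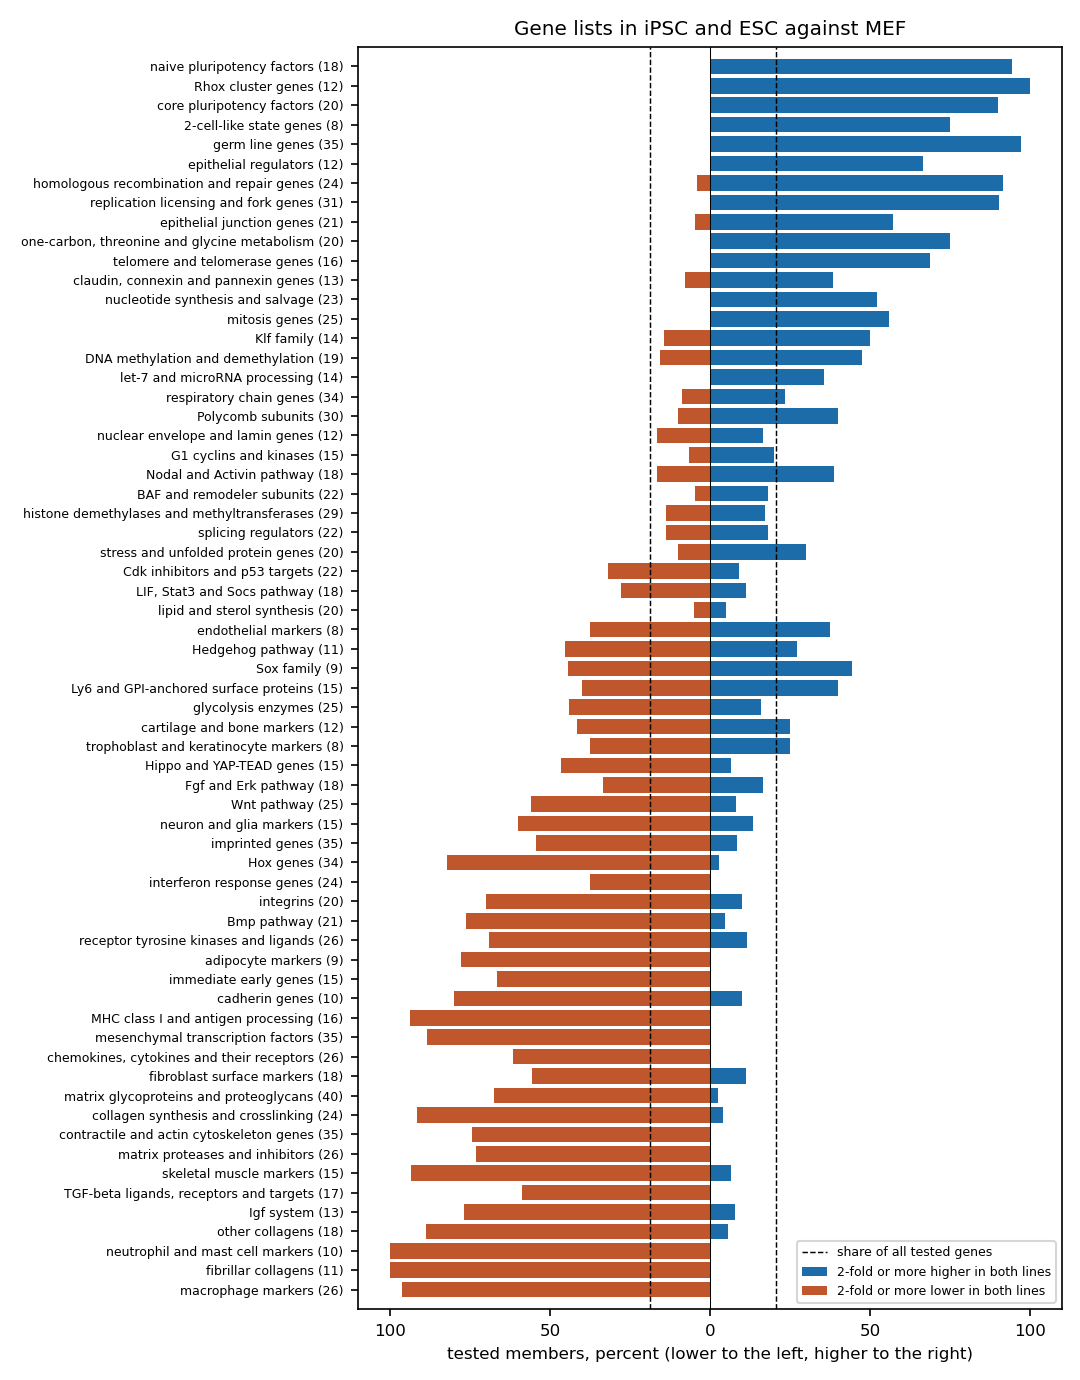
Percent of tested members of each gene list (number tested in parentheses, lists of 8 or more) that were 2-fold or more higher (blue, right) or lower (orange, left) in both lines than in MEFs, ordered by list median. Dashed lines mark the 20.5% and 18.9% of all tested genes. Pluripotency, Rhox and germ line lists stand at the top and macrophage markers, fibrillar collagens and neutrophil markers at the bottom.

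Cell cycle genes were higher mainly in the lists of replication and repair. Of 31 genes that license and run replication forks, 28 were higher and none lower, with a median of 2.35. Mcm10 was measured at 89.7 RPKM in iPSCs and 108 RPKM in ESCs, against 6.35 RPKM in MEFs, Orc1, the largest origin-binding subunit, at 92.2 RPKM in iPSCs and 91.6 RPKM in ESCs, against 7.12 RPKM in MEFs and Mcm5, a helicase subunit, at 407 RPKM in iPSCs and 338 RPKM in ESCs, against 32.7 RPKM in MEFs. Mitosis genes were higher in 14 of 25 cases, with a median of 1.21. Ccnb1, cyclin B1, was at 139 RPKM in iPSCs and 199 RPKM in ESCs, against 37.7 RPKM in MEFs and Kif11, a spindle motor, at 78.2 RPKM in iPSCs and 101 RPKM in ESCs, against 23.6 RPKM in MEFs. Mki67, the proliferation marker Ki-67, was measured at 43.4 RPKM in iPSCs and 60.6 RPKM in ESCs, against 41.9 RPKM in MEFs, which is under 2-fold, and Ccnf, cyclin F, at 235 RPKM in iPSCs and 237 RPKM in ESCs, against 31.8 RPKM in MEFs. Homologous recombination and mismatch repair genes were higher in 22 of 24 cases: Msh6 was measured at 289 RPKM in iPSCs and 395 RPKM in ESCs, against 28.4 RPKM in MEFs and Brca2 at 30.2 RPKM in iPSCs and 25.5 RPKM in ESCs, against 1.93 RPKM in MEFs. Xrcc3, a recombination factor, was lower, at 21.2 RPKM in iPSCs and 18.5 RPKM in ESCs, against 47.5 RPKM in MEFs. Among G1 regulators Ccne1, cyclin E1, was at 204 RPKM in iPSCs and 139 RPKM in ESCs, against 42.4 RPKM in MEFs and Ccnd2, cyclin D2, at 4.38 RPKM in iPSCs and 16.4 RPKM in ESCs, against 109 RPKM in MEFs. Cdk2, the partner of cyclin E, was measured at 107 RPKM in iPSCs and 158 RPKM in ESCs, against 49.4 RPKM in MEFs. The other D cyclins did not pass, Ccnd1 at 48.6 RPKM in iPSCs and 58.3 RPKM in ESCs, against 66 RPKM in MEFs and Ccnd3 at 245 RPKM in iPSCs and 198 RPKM in ESCs, against 320.3 RPKM in MEFs. Inhibitors of the Ink4 locus were lower, with Cdkn2a at 39.3 RPKM in iPSCs and 20.4 RPKM in ESCs, against 149.7 RPKM in MEFs and Cdkn2b at 6.91 RPKM in iPSCs and 9.72 RPKM in ESCs, against 109 RPKM in MEFs. Cdkn2c was measured at 1.1 RPKM in iPSCs and 2.22 RPKM in ESCs, against 11.6 RPKM in MEFs and Cdkn1c, an imprinted inhibitor, at 2.27 RPKM in iPSCs and 0.364 RPKM in ESCs, against 11.5 RPKM in MEFs. Trp53, which encodes p53, was higher, at 428 RPKM in iPSCs and 179.9 RPKM in ESCs, against 75.5 RPKM in MEFs, while its target Cdkn1a was at 252 RPKM in iPSCs and 302 RPKM in ESCs, against 438 RPKM in MEFs, under 2-fold.

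Chromatin regulators were mixed, and several families held members on both sides. De novo methyltransferase Dnmt3b was measured at 24.1 RPKM in iPSCs and 38.2 RPKM in ESCs, against 1.01 RPKM in MEFs and its relative Dnmt3a at 10.7 RPKM in iPSCs and 6.67 RPKM in ESCs, against 26.9 RPKM in MEFs. Dnmt3l, the catalytically inactive cofactor, was measured at 23 RPKM in iPSCs and 28.3 RPKM in ESCs, against 0.51 RPKM in MEFs. Tet1, which oxidises 5-methylcytosine, was at 53 RPKM in iPSCs and 34.5 RPKM in ESCs, against 1.54 RPKM in MEFs and Tet3 at 1.88 RPKM in iPSCs and 1.39 RPKM in ESCs, against 7.72 RPKM in MEFs. Dnmt3b and Tet1 were thus higher in the lines, and Dnmt3a and Tet3 higher in MEFs. Hells, a remodeler needed for DNA methylation, was measured at 146 RPKM in iPSCs and 181 RPKM in ESCs, against 10.7 RPKM in MEFs. Of 30 Polycomb subunits 12 were higher and 3 lower. Cbx7, the chromobox protein of PRC1 in pluripotent cells, was measured at 86.1 RPKM in iPSCs and 42.8 RPKM in ESCs, against 1.49 RPKM in MEFs. Epop and Mtf2, which join PRC2 in such cells, were measured at 106 RPKM in iPSCs and 38.6 RPKM in ESCs, against 2.12 RPKM in MEFs for Epop and at 226 RPKM in iPSCs and 279 RPKM in ESCs, against 20.2 RPKM in MEFs for Mtf2. Ezh2, the catalytic subunit, was at 153 RPKM in iPSCs and 245 RPKM in ESCs, against 48.7 RPKM in MEFs.

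The BAF scaffold Smarcc1 was measured at 111 RPKM in iPSCs and 125 RPKM in ESCs, against 40.0 RPKM in MEFs, and Smarcc2 at 32 RPKM in iPSCs and 23.7 RPKM in ESCs, against 63.3 RPKM in MEFs, which is at least 2-fold lower in ESCs alone. Smarca2, an ATPase subunit, was lower, at 1.8 RPKM in iPSCs and 10.5 RPKM in ESCs, against 41.5 RPKM in MEFs, while its counterpart Smarca4 was under 2-fold, at 78.4 RPKM in iPSCs and 78.1 RPKM in ESCs, against 61.7 RPKM in MEFs. Actl6a, another subunit, was measured at 263 RPKM in iPSCs and 289 RPKM in ESCs, against 45.8 RPKM in MEFs; Smarcd1 was higher too. Wdr5, a core subunit of histone H3 lysine methyltransferase complexes, was at 376 RPKM in iPSCs and 469 RPKM in ESCs, against 46.8 RPKM in MEFs. Hdac1 was measured at 35.8 RPKM in iPSCs and 85.9 RPKM in ESCs, against 9.56 RPKM in MEFs and Hdac7 at 6.2 RPKM in iPSCs and 9.23 RPKM in ESCs, against 102 RPKM in MEFs, opposed in direction. Hdac9 was measured at 0.45 RPKM in iPSCs and 0.569 RPKM in ESCs, against 8.64 RPKM in MEFs. In the nuclear lamina Lmnb1, lamin B1, was at 299 RPKM in iPSCs and 279.6 RPKM in ESCs, against 79.4 RPKM in MEFs and Lmna, lamin A and C, at 17.5 RPKM in iPSCs and 15.1 RPKM in ESCs, against 228 RPKM in MEFs. Lbr, the lamin B receptor, was measured at 80.2 RPKM in iPSCs and 114 RPKM in ESCs, against 28.9 RPKM in MEFs. Telomere genes were higher in 11 of 16 cases and lower in none. Tert, the telomerase reverse transcriptase, was measured at 28.5 RPKM in iPSCs and 34.3 RPKM in ESCs, against 7.01 RPKM in MEFs, and Dkc1, which stabilises its RNA, at 236 RPKM in iPSCs and 237 RPKM in ESCs, against 16.3 RPKM in MEFs. Rif1, a regulator of replication timing, was at 91.1 RPKM in iPSCs and 109 RPKM in ESCs, against 7.52 RPKM in MEFs and Nhp2, a partner of Dkc1, at 473 RPKM in iPSCs and 351 RPKM in ESCs, against 52.5 RPKM in MEFs.

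Of 14 genes that process microRNAs or act on let-7, 5 were higher and none lower, with Lin28a at 14.3 RPKM in iPSCs and 19.9 RPKM in ESCs, against 0.238 RPKM in MEFs Trim71 at 28.8 RPKM in iPSCs and 21.9 RPKM in ESCs, against 1.0 RPKM in MEFs and Drosha at 162 RPKM in iPSCs and 131 RPKM in ESCs, against 43.4 RPKM in MEFs. Splicing regulators were mostly under 2-fold, with 4 of 22 higher and 3 lower. Those shares, 18.2% and 13.6%, were no larger than the 20.5% and 18.9% of all tested genes. Mbnl1 and Mbnl2, which promote splicing patterns of differentiated cells, were lower: Mbnl1 was measured at 4.93 RPKM in iPSCs and 8.17 RPKM in ESCs, against 32.7 RPKM in MEFs and Mbnl2 at 23.3 RPKM in iPSCs and 28.9 RPKM in ESCs, against 126 RPKM in MEFs. Rbpms2, another RNA-binding protein, was measured at 159 RPKM in iPSCs and 165 RPKM in ESCs, against 9.69 RPKM in MEFs, while Rbpms was at 124 RPKM in iPSCs and 135 RPKM in ESCs, against 103 RPKM in MEFs.

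One-carbon and threonine metabolism was higher in 15 of 20 genes and lower in none, with a median of 1.76. Tdh, threonine dehydrogenase, which mouse pluripotent cells need for growth, was measured at 664 RPKM in iPSCs and 401 RPKM in ESCs, against 0.154 RPKM in MEFs. In the same list Gldc, which splits glycine, was measured at 46.6 RPKM in iPSCs and 53.7 RPKM in ESCs, against 2.87 RPKM in MEFs and Shmt1 at 140.0 RPKM in iPSCs and 125 RPKM in ESCs, against 5.99 RPKM in MEFs. Nucleotide genes were higher in 12 of 23 cases and lower in none. Upp1, uridine phosphorylase, was at 454 RPKM in iPSCs and 534 RPKM in ESCs, against 7.28 RPKM in MEFs and Ppat, the first enzyme of purine synthesis, at 95.5 RPKM in iPSCs and 90.2 RPKM in ESCs, against 7.46 RPKM in MEFs. Gart, which follows in the same pathway, was measured at 223 RPKM in iPSCs and 302 RPKM in ESCs, against 30.1 RPKM in MEFs. Hprt, the purine salvage enzyme, differed in direction between the lines, at 0.669 RPKM in iPSCs and 549 RPKM in ESCs, against 24.2 RPKM in MEFs.

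Glycolysis genes were lower in 11 of 25 cases and higher in 4. The glucose transporter Slc2a3 was measured at 569 RPKM in iPSCs and 697 RPKM in ESCs, against 68.8 RPKM in MEFs and Slc2a1, the form of most cells, at 243 RPKM in iPSCs and 153 RPKM in ESCs, against 419.9 RPKM in MEFs. Hexokinase 2, Hk2, was at 104 RPKM in iPSCs and 104 RPKM in ESCs, against 30.8 RPKM in MEFs. Downstream, Ldha was measured at 432 RPKM in iPSCs and 616 RPKM in ESCs, against 1458 RPKM in MEFs and Ldhb at 234 RPKM in iPSCs and 641 RPKM in ESCs, against 96.1 RPKM in MEFs, and the lactate exporter Slc16a3 at 20.5 RPKM in iPSCs and 12.2 RPKM in ESCs, against 231 RPKM in MEFs. Pfkfb3, which makes an activator of glycolysis, was measured at 4.81 RPKM in iPSCs and 7.72 RPKM in ESCs, against 85.6 RPKM in MEFs. Slc2a3 and Ldhb were thus higher in both lines and Ldha, Slc16a3 and Pfkfb3 lower. In the respiratory chain most genes were under 2-fold, with 8 of 34 higher. That share, 23.5%, was near the 20.5% of all tested genes. The isoforms gave the wide gaps: Cox7a1 was at 233 RPKM in iPSCs and 259.9 RPKM in ESCs, against 29.4 RPKM in MEFs, Cox4i2, a form induced by low oxygen, at 1.73 RPKM in iPSCs and 3.52 RPKM in ESCs, against 198 RPKM in MEFs and Ndufa4l2, likewise, at 17.1 RPKM in iPSCs and 35.6 RPKM in ESCs, against 502 RPKM in MEFs. Of 20 lipid and sterol genes 18 were under 2-fold in a line, with Elovl6 higher at 77.9 RPKM in iPSCs and 59.1 RPKM in ESCs, against 12.8 RPKM in MEFs and Scd2 lower at 197 RPKM in iPSCs and 189 RPKM in ESCs, against 414 RPKM in MEFs. Scd1 was measured at 34.3 RPKM in iPSCs and 38.6 RPKM in ESCs, against 72.5 RPKM in MEFs. The metallothioneins Mt1 and Mt2 and the quinone reductase Nqo1 were higher among stress genes; Mt2 was measured at 3147 RPKM in iPSCs and 1682 RPKM in ESCs, against 56.2 RPKM in MEFs and Nqo1 at 76.1 RPKM in iPSCs and 74.1 RPKM in ESCs, against 6.65 RPKM in MEFs. Immediate early genes were lower in 10 of 15 cases, with Fos at 10.2 RPKM in iPSCs and 8.69 RPKM in ESCs, against 79.4 RPKM in MEFs Jun at 3.94 RPKM in iPSCs and 4.59 RPKM in ESCs, against 32.7 RPKM in MEFs, Ier3 at 9.71 RPKM in iPSCs and 7.91 RPKM in ESCs, against 125 RPKM in MEFs and Fosl2 at 1.6 RPKM in iPSCs and 4.38 RPKM in ESCs, against 49.6 RPKM in MEFs.

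Of 25 pairs of related genes, 10 were opposed at 2-fold or more, one member higher and the other lower in both lines. They included the pairs of cadherins, lamins, Tet, Dnmt3, lactate dehydrogenase and deacetylase genes above, and Klf5 with Klf6. Klf5 was at 100.4 RPKM in iPSCs and 56.7 RPKM in ESCs, against 8.82 RPKM in MEFs and Klf6, an early response factor, at 12.7 RPKM in iPSCs and 26.7 RPKM in ESCs, against 98.3 RPKM in MEFs. The Myc pair came close: Mycn was measured at 51.9 RPKM in iPSCs and 22.5 RPKM in ESCs, against 3.46 RPKM in MEFs, and Myc at 11.3 RPKM in iPSCs and 1.22 RPKM in ESCs, against 21.1 RPKM in MEFs, which is under 2-fold in iPSCs.

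Single exons showed use apart from the level of their gene. An exon was compared where it had 30 bases or more and reached 10 RPKM in a library, and its gene 2 RPKM in all 3. Of 133456 such exons in 12008 genes, 283 (0.212%) were 4-fold or more above their gene's level in both lines relative to MEFs, and 171 (0.128%) below it. They fell in 189 genes. Of the 10 exons of largest departure, those of Tmem39a and Ash2l and 1 of Filip1l were untranslated first exons of annotated transcripts. A 65-base untranslated first exon of Tmem39a (chr16:38558698-38558762, plus strand) was at 78.5 RPKM in iPSCs and 96.8 RPKM in ESCs, against 0 in MEFs, while the gene was at 150 RPKM in iPSCs, 205 RPKM in ESCs and 110.4 RPKM in MEFs. An untranslated first exon of Ash2l (chr8:25847579-25847694, minus strand), a subunit beside Wdr5, was at 313 RPKM in iPSCs and 623 RPKM in ESCs, against 0 in MEFs. Its gene was at 377 RPKM in iPSCs, 620.0 RPKM in ESCs and 34.1 RPKM in MEFs. A value of 0 allows up to 3 reads.

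The remaining exons of the 10 were coding, apart from 1 of a noncoding transcript, Gm26642, which shares bases with another gene. A 45-base coding exon of Rtn2, a reticulon, was at 10.7 RPKM in iPSCs and 6.5 RPKM in ESCs, against 0 in MEFs, while the gene was at 9.97 RPKM in iPSCs and 11.9 RPKM in ESCs, against 86.7 RPKM in MEFs. In Myh13, a myosin heavy chain gene, 2 overlapping exons of 100 and 105 bases were at 50.2 and 47.9 RPKM in iPSCs and 32.9 and 31.8 RPKM in ESCs, against 0 in MEFs. The Gm26642 exon was at 228 RPKM in iPSCs and 164 RPKM in ESCs, against 1.37 RPKM in MEFs. A 34-base coding exon of Dlc1 (chr8:36763645-36763678, minus strand), a GTPase-activating protein, was at 0 in iPSCs and 0 in ESCs, against 29.4 RPKM in MEFs, while the gene was at 28.5 RPKM in iPSCs, 26.3 RPKM in ESCs and 25.4 RPKM in MEFs. In Filip1l 3 exons, 2 of them coding, were at 19.3 to 20.7 RPKM in iPSCs and 3.89 to 4.07 RPKM in ESCs, against 0.855 to 1.02 RPKM in MEFs, although the whole gene was lower in the lines, at 5.1 RPKM in iPSCs and 4.48 RPKM in ESCs, against 67.3 RPKM in MEFs. A 31-base coding exon of Calml4, a calmodulin-like protein, was at 0 in iPSCs and 0 in ESCs, against 106 RPKM in MEFs. It came after the 10 largest and was chosen after its values were seen.

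Of 53 genes listed for known alternative splicing, 47 had tested exons and 3 had an exon past 4-fold: Tead1, Macf1 and Fgfr2. The Fgfr2 exons share bases with another gene and are uncertain. In Macf1, a linker of actin and microtubules, 29 of 117 tested exons were 4-fold or more above the level of the gene in both lines relative to MEFs. One of them (chr4:123507284-123507361, minus strand) was at 21.2 RPKM in iPSCs and 31.9 RPKM in ESCs, against 1.42 RPKM in MEFs. Tead1, the factor that YAP binds, had 1 such exon. This 63-base coding exon at chr7:112842040-112842102 (plus strand) was at 75.0 RPKM in iPSCs and 60.4 RPKM in ESCs, against 12 RPKM in MEFs. The exon before it, also of 63 bases, was at 48.4 RPKM in iPSCs, 46.1 RPKM in ESCs and 32.8 RPKM in MEFs. The next exon, of 12 bases and so under the length compared, was at 234 RPKM in iPSCs and 199 RPKM in ESCs, against 38.9 RPKM in MEFs. The 135-base exon after that was at 54.3 RPKM in iPSCs and 25.8 RPKM in ESCs, against 31.3 RPKM in MEFs. The sequence is shown because its length, a multiple of 3, allows it to be kept or skipped with the reading frame unchanged. It and the Calml4 exon (chr9:62858242-62858272, plus strand, not a multiple of 3) are read from the GENCODE M21 transcripts on GRCm38, all in lower case since no motif is marked.
Tead1: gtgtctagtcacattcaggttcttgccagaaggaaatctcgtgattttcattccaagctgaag
Calml4: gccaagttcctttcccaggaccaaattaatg
The 63-base exon and the 12-base exon after it were thus both lower in MEFs than in either line, while the 135-base exon was not lower in MEFs than in ESCs. ESCs had the exons of 47 and 62 bases that follow at 21.3 and 19.7 RPKM, below both other libraries.

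**Figure D5:**
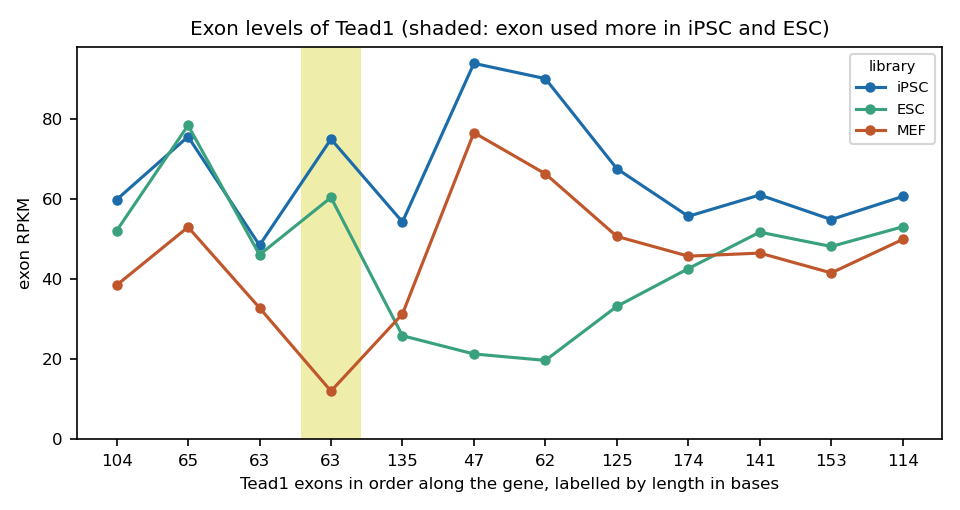
RPKM of 12 exons of Tead1 of 30 bases or more that do not overlap each other, in order along the gene and labelled by length in bases, in iPSCs, ESCs and MEFs. At the shaded 63-base exon MEFs drop to 12 RPKM while iPSCs and ESCs stand at 75.0 and 60.4 RPKM.

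Genes that passed in 1 line alone, 4-fold or more from MEFs while the other line was under 2-fold, were fewer. A total of 137 (0.795%) were higher and 198 (1.15%) lower in iPSCs alone, and 185 (1.07%) were higher and 59 (0.342%) lower in ESCs alone. Higher in iPSCs alone were Zfhx2, a homeobox gene, at 32.7 RPKM in iPSCs and 1.6 RPKM in ESCs, against 0.532 RPKM in MEFs, then Acsm4, Lefty1, Notch4 and Gtsf2. Notch4, a Notch receptor, was measured at 9.31 RPKM in iPSCs and 0.603 RPKM in ESCs, against 0.131 RPKM in MEFs. Lower in iPSCs alone were Saa3, an acute phase protein, at 0 RPKM in iPSCs and 1230.0 RPKM in ESCs, against 972 RPKM in MEFs, then Dcn, Lum, S100a4 and Ccl2. All 5 were under 2-fold between ESCs and MEFs on the log2 scale used here. Higher in ESCs alone were Sowahd, at 0.11 RPKM in iPSCs and 98 RPKM in ESCs, against 0.0565 RPKM in MEFs, Ccl8, Ccl11, Ubd, a ubiquitin-like modifier, at 0 RPKM in iPSCs and 46.9 RPKM in ESCs, against 0 in MEFs, and Hesx1, a homeobox gene, at 0.56 RPKM in iPSCs and 29.9 RPKM in ESCs, against 0.039 RPKM in MEFs. Lower in ESCs alone were Ftl1-ps2 and Rpl29-ps5, pseudogenes whose reads cannot be told apart from their parent genes, and Myc, Ccdc85b and Ier5l. Myc was at 1.22 RPKM in ESCs, the lowest of the 3.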

How the data were processed

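Polyadenylated RNA was sequenced from 1 library per group. The deposited values are RPKM per Ensembl exon, made by the authors; per the submitters' processing notes the genome build was mm10 and the tools were bedtools, TopHat2 2.0.10, Bowtie and CASAVA 1.8.2, with no role or order given. Of 279252 exons, 270168 (96.7%) matched an exon ID of GENCODE M21 (GRCm38). Gene values are exon means weighted by length. Ratios used a pseudocount of 1 RPKM, and genes needed 2 RPKM in 1 of the 3 libraries. With 1 library per group no test was made: 4-fold in both lines was the rule for genes and exons, 2-fold for the 67 lists. Depths were read from the steps of low values, and in the 7 libraries 96.3% to 96.5% of exon values gave whole reads within 0.01 read. Intervals (exact Clopper-Pearson, 95%) and the 3-read floor cover counting error only. Strand was not used, so reads of overlapping genes and near-identical copies cannot be told apart, and short exons hold few reads.

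Genes were named as the 15 highest and 15 lowest by the smaller ratio, the 5 on each side in 1 line alone, list members by role, the pairs and the 10 exons of largest departure. The comparison, members and lists were chosen with earlier results of these data known. Some members of the lists are not reported here. Scripts were tested on simulated data. Alternatives changed the scaling, pseudocount, floor, exon set, threshold, line and promoter window. Python 3.11.15, pandas 2.3.3, numpy 2.4.6, scipy 1.17.1 and matplotlib 3.10.9 were used.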

Additional observations from a re-analysis of the deposited data

Results flagged for a closer look

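In 11 genes the lines differed from MEFs by 4-fold or more in opposite directions, lower in iPSCs and higher in ESCs in all 11. With 1 library per line, the difference between the lines was not tested. Hprt had a log2 ratio of -3.92 in iPSCs and 4.45 in ESCs. Its level was 0.669 RPKM in iPSCs and 549 RPKM in ESCs, against 24.2 RPKM in MEFs, and all 9 of its exons showed the same order. Mmp3 had log2 ratios of -3.07 in iPSCs and 4.78 in ESCs, Dpt, dermatopontin, -3.72 in iPSCs and 2.93 in ESCs, and Cxcl5 -2.17 in iPSCs and 3.80 in ESCs. Ifi205 had -3.34 in iPSCs and 3.20 in ESCs, and Agtr2, an angiotensin receptor, -2.50 in iPSCs and 2.56 in ESCs. Among copied genes, Rps15a-ps8 had -3.40 in iPSCs and 4.16 in ESCs, Gm3727 -2.01 in iPSCs and 2.96 in ESCs, Gm5797 -2.26 in iPSCs and 3.07 in ESCs, Gm8374 -2.38 in iPSCs and 3.11 in ESCs, and Gm3760 -2.47 in iPSCs and 3.14 in ESCs. Reads of such copies cannot be told apart.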

How the results depend on the processing

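The depth of 41 to 58 megareads limits genes near 0, and the absence of replicates limits every ratio. No paired analysis was possible because each group has 1 library. Median-of-ratios scaling moved the median log2 ratio of all genes to 0.07, against 0.21 as deposited. It gave 1166 higher and 1747 lower genes (40.0% higher of those called, against 45.2% as deposited), of which 1164 and 1553 were shared. A pseudocount of 4 RPKM gave 717 higher and 863 lower, a 2-fold threshold 3533 and 3260, and an 8-fold threshold 582 and 581. iPSCs alone had 2351 lower genes and ESCs alone 1933 higher. Genes lower in ESCs alone numbered 99, against 59, with each library scaled to an equal sum; its use on this count was chosen after seeing the data. Exons used more in the lines numbered 182 at a gene level of 8 RPKM and 85 at 8-fold, and exons used less 24 at 8-fold. The E-box share of higher genes was 9.39% in the 250 bases before the start, against 12.3% with the 50 bases after it. Over tested genes the shares were 9.54% and 11.4%, and over all promoters 6.86% and 8.09%. Of 7431 recomputed values of 1240 named or listed genes, 7119 stayed on the same side of 2-fold, 182 fell below it and 128 passed it. A change of sign was counted only for genes past 2-fold as deposited. There were 2, both with the highest exon of each gene: Fgfr2 at 0.000327 and Runx2 at 0.0505 (log2). Genes under 2-fold as deposited were not checked for sign. Of 1474 recomputed list values 1377 kept within range and 97 moved. The cause of these changes was not tested.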
